A study of Homo sapiens with 3 samples.

Results

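Cardiac jelly is the gel-like matrix that lies between the myocardium and the endocardium of the embryonic heart. HAS2, HAS3, VCAN, HAPLN1, CD44 and HYAL2, which make, organise, bind or cut its hyaluronan and versican, were followed by day and cell class in single-cell RNA libraries of chambered cardiac organoids (CCOs). They are 6 of the 32738 genes in the count table and were chosen by name, in part because HAS2 was already known to be much lower in the cardiomyocytes (CMs) of D21. The HAS2 values in CMs are therefore given as a description, and so are those of the other genes in the same cells.

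The CCOs were grown from H7, an established human embryonic stem cell line, and every library carries the same unmodified line. Cells differentiated towards the cardiac lineage in monolayer were aggregated in Matrigel the day before D8, fed with a growth factor medium until D14, and kept in spinner flasks with a plainer medium until D21. There was 1 library at each of D8, D14 and D21, so that day, library and culture step cannot be told apart, no replicate error exists and no test between days could be made. After the limits on genes and mitochondrial UMIs stated in the methods of the study, 2657 cells were kept at D8, 3585 at D14 and 1946 at D21.

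Hyaluronan is a very long, unbranched sugar polymer that is extruded through the plasma membrane by its synthases and swells with water. Versican, a large proteoglycan with chondroitin sulfate chains, binds hyaluronan, and link protein locks the pair together, which gives the jelly its bulk. In the embryo, CMs secrete much of this matrix, endocardial cells invade it where the cushions form, and it is thinned as the chamber wall matures. Loss of Has2 or of Vcan stops heart development in mouse embryos.

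Each captured mRNA molecule carried a unique molecular identifier (UMI), and a level is the number of UMIs of a gene per 1000000 UMIs (CPM) summed over the cells of a class and day, with an exact Poisson 95% interval. These intervals, and those of all ratios and shares, cover counting error only. Levels are compared for 1 gene at a time, since the count of a 3′ tag is not scaled to length and differs in efficiency between genes. The kept cells had medians of 12282 to 15316 UMIs, and libraries shared between 9 and 14 kept barcode sequences in each pair of days. The 8188 cells fell into 17 clusters, 14 of which came to at least 90% from a single day, and 10 were named from marker lists. CM-like cells numbered 502 at D8 (cluster 5), 1134 at D14 (nearly all in cluster 1) and 492 at D21 (nearly all in cluster 6), and the 10 CM markers were all present in them, with a summed level of 11802, 32644 and 85706 CPM. Endothelial-like cells were few, with 47, 53 and 37 cells. Cardiac fibroblast-like and hepatic endoderm-like cells are described at D21 only, with 825 and 307 cells. The 536 cells of cluster 4 at D14 met 5 of the 10 fibroblast markers, with 0 of them among the 10 leading genes of the cluster, and were left unnamed. An epithelium with SOX2 and TFAP2A was named at D8 and D14, and dividing-like cells on all 3 days, where those of D21 (mainly cluster 14) also met 6 of the 10 fibroblast markers.

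The upstream sequences of a proteoglycan, its link protein and the hyaluronan receptor are shown first, since these genes had different courses in CM-like cells. HAPLN1 and VCAN are neighbours on chromosome 5, with 0 other protein-coding genes between them. In CM-like cells, HAPLN1 was lower on each later day, CD44 was lower at D21 alone and VCAN was highest at D14. The promoter table used here, from RefSeq (GRCh38.p14), matched 5 of the 6 genes, and HAS2 is named only. The 250 bases before each annotated start are given 5′ to 3′ on the strand of the gene, at chr5:83720856-83721105 for HAPLN1 (minus strand), chr5:83471494-83471743 for VCAN (plus strand) and chr11:35138921-35139170 for CD44 (plus strand). Capitals mark matches to AAGTG or its reverse complement CACTT, the core letters bound by the cardiac factor NKX2-5.
HAPLN1: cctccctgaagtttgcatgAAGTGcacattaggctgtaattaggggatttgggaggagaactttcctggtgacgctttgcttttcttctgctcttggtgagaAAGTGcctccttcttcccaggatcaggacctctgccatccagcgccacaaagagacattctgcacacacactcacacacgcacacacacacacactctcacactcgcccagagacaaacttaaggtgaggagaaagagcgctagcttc
VCAN: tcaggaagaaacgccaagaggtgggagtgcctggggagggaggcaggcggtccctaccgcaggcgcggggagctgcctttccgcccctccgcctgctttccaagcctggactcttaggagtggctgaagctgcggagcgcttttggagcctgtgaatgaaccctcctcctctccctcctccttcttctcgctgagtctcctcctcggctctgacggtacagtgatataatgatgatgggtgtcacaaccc
CD44: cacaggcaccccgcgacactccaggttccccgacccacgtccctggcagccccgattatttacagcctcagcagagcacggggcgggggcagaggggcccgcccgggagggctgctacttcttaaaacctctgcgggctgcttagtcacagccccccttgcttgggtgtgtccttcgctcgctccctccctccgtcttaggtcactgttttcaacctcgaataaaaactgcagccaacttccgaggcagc
The HAPLN1 window held 2 such matches, the VCAN and CD44 windows 0, and 37.6% of all 35116 windows of that length held at least 1. The windows of HYAL2 and HAS3, which are not shown, each held 1. The motif AGATAA of GATA factors was searched in the same way on both strands. It had 0 matches in the 3 windows shown and stood in 9.17% of all windows. The motif AGGTGT of T-box factors had 0 matches, with 9.57% of all windows holding it. The motif TATAAA of the TATA box had 0 matches, with 10.7% holding it. The windows had a GC content of 50.8% for HAPLN1, 60.8% for VCAN and 62.4% for CD44, against a median of 58% over all windows. A match is a stretch of letters and not a measured binding site.

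The synthase HAS2, which makes most of the hyaluronan of the embryonic heart, was highest in CM-like cells at D8 and at D14 and almost absent from them at D21. It gave 1543 UMIs in the CM-like cells of D8 (189 CPM, 95% interval 180 to 198), 2326 in those of D14 (155 CPM, 149 to 162) and 12 in those of D21 (1.76 CPM, 0.908 to 3.07). The intervals of the 3 days do not overlap, and the difference between D8 and D14 is small beside that between D14 and D21. The level at D14 was 1.22-fold below that at D8 (interval 1.14 to 1.30), and the level at D21 was 88.3-fold below that at D14 (50.5 to 171). The small difference between D8 and D14 depends on the cells taken as CMs. With each day clustered alone, the clusters named as CMs had HAS2 at 169 and 224 CPM at D8 and at 105 and 310 CPM at D14. From D8 to D21, the ratio was -6.75 on the log2 scale (-7.70 to -5.94). Of the genes that reached 5 CPM on at least 1 of these days, 0.101% had a lower one. In the hepatic endoderm-like cells of the same D21 library, which are of another germ layer, HAS2 stood at 1.46 CPM (0.729 to 2.61), so that the CM-like level of D21 was not separated from theirs.

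HAS2 remained measurable in the stromal cells of D21. Cardiac fibroblast-like cells had 447 UMIs (39.9 CPM, 36.3 to 43.8) and held 72.6% of the HAS2 UMIs in the kept cells of that library. CM-like cells held 1.95%. At D8, CM-like cells had held 31.8% of the HAS2 UMIs and at D14 52.6%. In dividing-like cells, HAS2 went from 103 CPM through 65.0 CPM to 33.5 CPM on the 3 days, which is 3.09-fold lower at D21 than at D8 (2.51 to 3.84). Endothelial-like cells had 33 UMIs at D8 (40.5 CPM) and 22 at D14 (34.3 CPM), with intervals that overlap, and 0 at D21, where 3 counts would be 5.27 CPM, so that the level there was at least 7.68-fold lower than at D8. The SOX2 and TFAP2A epithelium-like cells were lowest at both earlier days, with 14.5 CPM at D8 and 10.4 CPM at D14. At D8, the order of clusters ran from CM-like cells through clusters 0 (unnamed, led by HAND1 and EBF2), 9 (dividing-like) and 8 (unnamed, led by PRSS1 and TTR). Clusters 0, 9 and 8, at 107, 103 and 99.7 CPM, were not separated from each other, and their intervals lay below that of CM-like cells. The antisense gene HAS2-AS1, added after its values were seen, had 6.85, 12.4 and 0.586 CPM in the CM-like cells of D8, D14 and D21, and at D21 it had 5.71 CPM in fibroblast-like cells. The sources used here do not say whether counting used the strand, and reads of HAS2 and HAS2-AS1 may not be fully told apart.

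**Figure D1:**
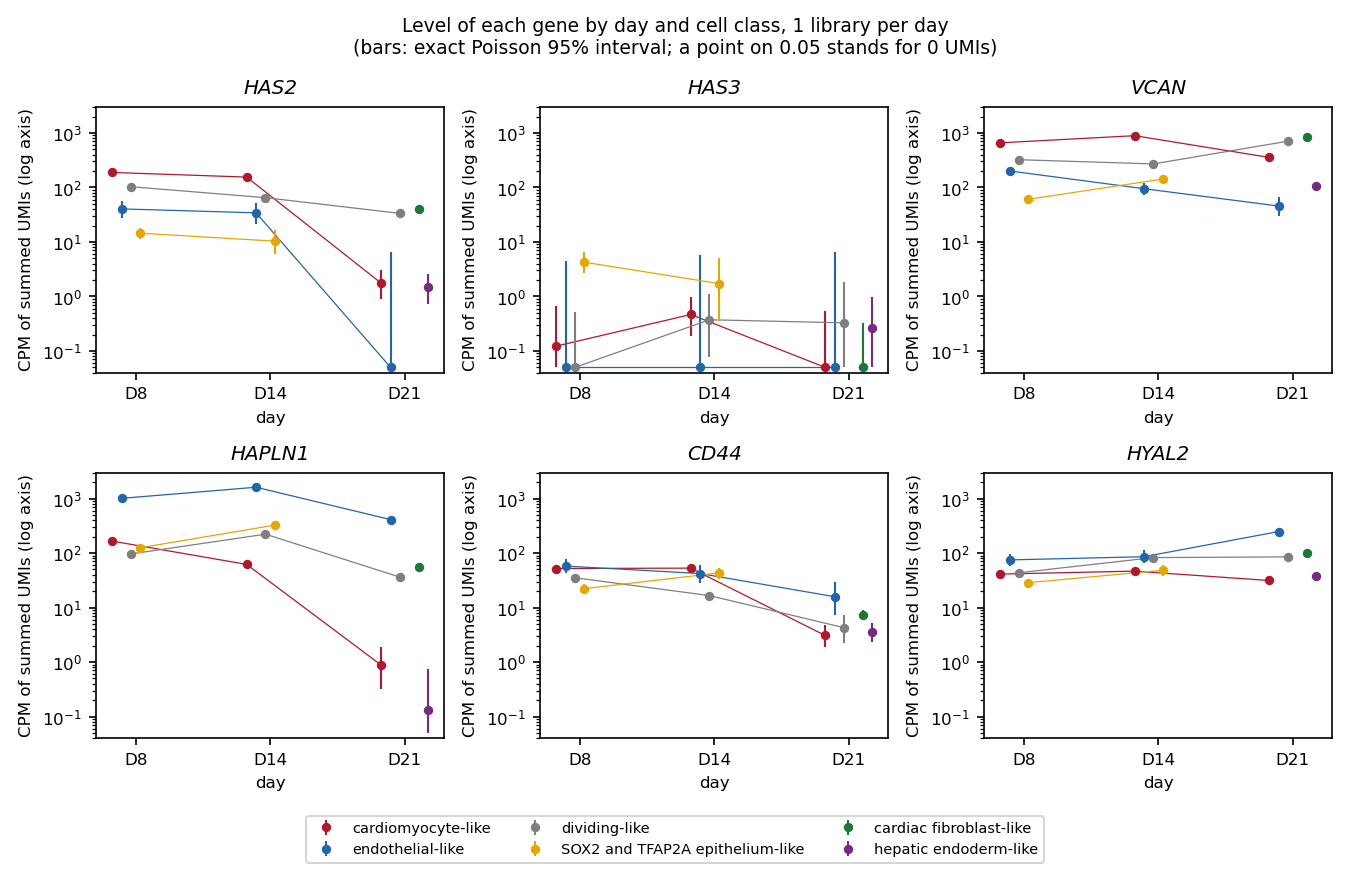
Level of each gene in CPM of summed UMIs (log axis) by day, with 1 panel per gene and 1 colour per cell class; points are the level in 1 library, bars are exact Poisson 95% intervals, and a point on 0.05 stands for 0 UMIs. HAS2, HAPLN1 and CD44 in CM-like cells sit near 189, 166 and 52.0 CPM at D8 and at 1.76, 0.878 and 3.07 CPM at D21, while VCAN and HYAL2 stay within 2-fold of their D8 level.

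The second synthase, HAS3, was barely detected. CM-like cells had 1, 7 and 0 UMIs on the 3 days, and on the last of them 3 counts would be 0.439 CPM. Its highest level in a named class was 4.25 CPM (2.66 to 6.44, 22 UMIs) in the SOX2 and TFAP2A epithelium-like cells of D8. HAS3 stayed under 5 CPM in every class and day and was left out of the counts of genes past 2-fold.

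VCAN, which encodes versican, was present in CM-like cells on all 3 days. It gave 5394 UMIs at D8 (660 CPM, 643 to 678), 13382 at D14 (893 CPM, 878 to 908) and 2434 at D21 (356 CPM, 342 to 371). The level was highest at D14 and lowest at D21, with no overlap between the intervals of the days. It was 1.35-fold higher at D14 than at D8 (1.31 to 1.40), 2.51-fold lower at D21 than at D14 (2.40 to 2.62) and 1.85-fold lower at D21 than at D8 (1.77 to 1.94). CM-like cells were the highest class at D8 and D14, ahead of cluster 0 with 386 CPM at D8 and cluster 2 (unnamed, led by MFAP4 and CTNNA2) with 414 CPM at D14. At D21, fibroblast-like cells (845 CPM, 828 to 862), cluster 14 of dividing-like cells (807 CPM) and cluster 15 (unnamed, 803 CPM) formed a group at the top that was not separated, and CM-like cells lay below them. Cluster 15 had the highest median Scrublet doublet score of all clusters, at 0.187, where the next had 0.0688, and the part of doublets in its level was not tested. Of the VCAN UMIs in the kept cells of D21, fibroblast-like cells held 59.2% and CM-like cells 15.2%. CM-like cells had held 56.8% at D14. Kept cells were 21.3% of the barcodes at D21 and 77.7% at D14. With no mitochondrial limit, 1196 CM-like cells of D21 at 10% to 20% of mitochondrial UMIs held 5292 VCAN UMIs. At D14, 165 such cells held 2276. The shares thus depend on that limit.

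In dividing-like cells, VCAN was highest at D21, going from 323 CPM at D8 and 271 CPM at D14 to 707 CPM at D21, which is 2.19-fold higher than at D8 (2.06 to 2.32). The fibroblast markers met by the dividing-like cells of D21 moved with this, and their part in it was not tested. In endothelial-like cells, VCAN stood at 201 CPM at D8 and 45.7 CPM at D21, which is 4.40-fold lower at D21 than at D8 (2.90 to 6.94). In the SOX2 and TFAP2A epithelium-like cells, it was 60.9 CPM at D8 and 143 CPM at D14. Hepatic endoderm-like cells had 104 CPM at D21.

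HAPLN1, the link protein that holds versican on hyaluronan, was above all a gene of endothelial-like cells, although CM-like cells had it at D8. Endothelial-like cells gave 823 UMIs at D8 (1009 CPM, 941 to 1081), 1036 at D14 (1613 CPM, 1516 to 1714) and 234 at D21 (411 CPM, 360 to 467). They were the highest cluster on every day, with an interval that no other cluster reached. With 1.77% of the cells of D8, they held 16.4% of its HAPLN1 UMIs. CM-like cells gave 1353 UMIs at D8 (166 CPM, 157 to 175), 927 at D14 (61.8 CPM, 57.9 to 66.0) and 6 at D21 (0.878 CPM, 0.322 to 1.91). The level at D14 was 2.68-fold below that at D8 (2.46 to 2.91), and the level at D21 was 70.4-fold below that at D14 (32.2 to 192). Hepatic endoderm-like cells had 1 UMI at D21 (0.133 CPM, 0.00336 to 0.740), with an interval that overlaps that of CM-like cells.

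Between D8 and D14, HAPLN1 differed in opposite directions in the classes. While it was lower at D14 in CM-like cells, it was 1.60-fold higher in endothelial-like cells (1.46 to 1.75), 2.30-fold higher in dividing-like cells (2.11 to 2.52) and 2.60-fold higher in the SOX2 and TFAP2A epithelium-like cells (2.32 to 2.92). From D8 to D14, the summed fibroblast markers also went from 641 to 1744 CPM in dividing-like cells, which lay in cluster 9 at D8 and mainly in cluster 7 at D14. They went from 194 to 702 CPM in the epithelium-like cells, whose own 8 markers went from 1372 to 693 CPM. The part of these in the HAPLN1 values was not tested. At D14, the second highest cluster was cluster 4, which is unnamed and is led by MGP, TMEM100 and ENG, with 449 CPM. From D14 to D21, HAPLN1 was lower in every class that could be compared, by 3.92-fold in endothelial-like cells (3.40 to 4.54) and by 6.14-fold in dividing-like cells (5.07 to 7.52). Fibroblast-like cells had 56.4 CPM at D21 and held 62.6% of the HAPLN1 UMIs in the kept cells of that library, with 42.4% of those cells.

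CD44, the main cell surface receptor for hyaluronan, had 425 UMIs in the CM-like cells of D8 (52.0 CPM, 47.2 to 57.2), 792 in those of D14 (52.8 CPM, 49.2 to 56.7) and 21 in those of D21 (3.07 CPM, 1.90 to 4.70). The levels at D8 and D14 were not separated, and the sign of the small difference between them depended on the scaling (log2 ratio 0.02 by total counts, -0.02 with TMM factors and -0.05 with size factors). The level at D21 was 17.2-fold below that at D14 (11.2 to 27.9). CD44 was also lower at D21 in the other classes, by 3.65-fold from D8 in endothelial-like cells (1.77 to 8.46) and by 8.24-fold in dividing-like cells (4.73 to 15.7). At D8, cluster 12, which is unnamed and is led by NMB, DIO3 and NDRG1, had 78.7 CPM, and its interval overlapped that of endothelial-like cells at 57.6 CPM. In the hepatic endoderm-like cells of D21, CD44 was at 3.59 CPM, not separated from CM-like cells. Over all cells, CD44 was at 42.1, 30.4 and 6.18 CPM.

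HYAL2, a hyaluronidase anchored at the cell surface that cuts hyaluronan into large fragments, varied least in CM-like cells. It gave 336 UMIs at D8 (41.1 CPM, 36.8 to 45.8), 698 at D14 (46.6 CPM, 43.2 to 50.2) and 214 at D21 (31.3 CPM, 27.3 to 35.8). The intervals of D8 and D14 overlap and that of D21 lies below both, at 1.31-fold under D8 (1.10 to 1.57). This difference from D8 depends on the scaling. The log2 ratio was -0.39 by total counts (-0.65 to -0.14), -0.17 with TMM factors and -0.22 with size factors. The shifts of 0.22 and 0.17 are larger than the distance of that interval from 0. Endothelial-like and dividing-like cells had more HYAL2 at D21 than at D8. In endothelial-like cells it went from 74.8 CPM at D8 and 85.6 CPM at D14 to 248 CPM at D21 (208 to 292), which is 3.31-fold above D8 (2.44 to 4.55) and above every other cluster of D21. In the same cells, the summed CM markers were 139, 744 and 4579 CPM on D8, D14 and D21, the hepatic endoderm markers 7.36, 21.8 and 1765 CPM, the fibroblast markers 605, 688 and 1142 CPM and the endothelial markers 3126, 2818 and 3887 CPM. Their part in the endothelial-like values was not tested. Dividing-like cells had 43.5, 82.5 and 85.0 CPM, and fibroblast-like cells of D21 had 99.6 CPM. The CM-like cluster was last in order at D14 and at D21, with an interval that overlapped that of the next.

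**Figure D2:**
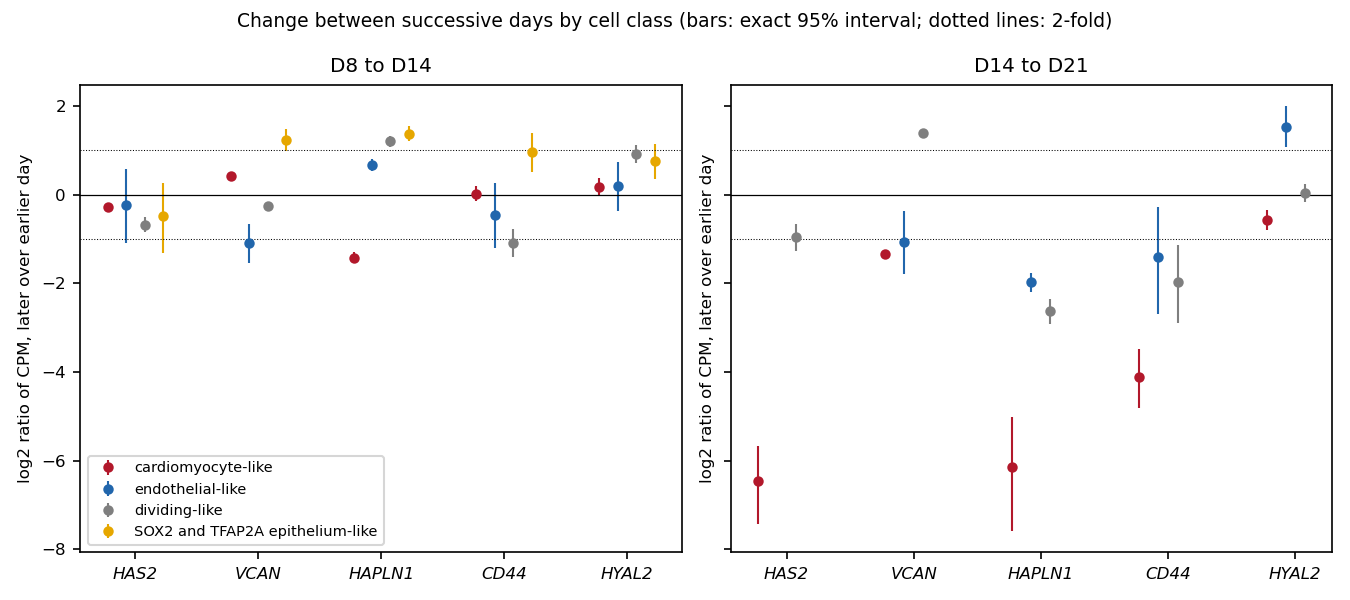
Log2 ratio of CPM between D8 and D14 (left) and between D14 and D21 (right) for 5 genes, with 1 colour per cell class, exact 95% intervals as bars and dotted lines at 2-fold; HAS2 in the endothelial-like cells of D21 has 0 UMIs and is not drawn. From D8 to D14, HAPLN1 lies below 0 in CM-like cells and above 0 in the 3 other classes, and from D14 to D21 VCAN lies at -1.32 in CM-like cells and at 1.39 in dividing-like cells.

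Of the 6 genes, 5 reached 5 CPM on at least 1 of the days compared in CM-like cells. From D8 to D14, 1 of these 5 was at least 2-fold lower (HAPLN1), where 2.58% of all 11115 genes measured were, and 0 were at least 2-fold higher, where 11.9% were. From D14 to D21, 4 of 5 were at least 2-fold lower (HAS2, VCAN, HAPLN1 and CD44), beside 18.2% of all 11119 genes, and 0 were higher, beside 5% of all genes. From D8 to D21, 3 of 5 were at least 2-fold lower, beside 17.6% of 10913 genes, and 0 were higher, beside 12.2%. Their median log2 ratio from D8 to D21 was -4.08, and that of all genes measured was -0.16. Because the genes were chosen with this contrast in view, nothing is read from these counts. Between D8 and D14, endothelial-like cells had 1 of 5 at least 2-fold lower (VCAN), beside 10.2% of 10596 genes, and 0 higher, beside 8.17%. The SOX2 and TFAP2A epithelium-like cells had 0 lower, beside 10.8% of 10779 genes, and 2 higher (VCAN and HAPLN1), beside 11%. Dividing-like cells had 1 lower (CD44), beside 2.67% of 11037 genes, and 1 higher (HAPLN1), beside 8.15%. Between D14 and D21, endothelial-like cells had 4 lower, beside 12.5% of 10998 genes, and 1 higher, beside 14.8%, while dividing-like cells had 2 lower (HAPLN1 and CD44), beside 10.8% of 11153 genes, and 1 higher (VCAN), beside 6.03%. In endothelial-like cells, 4 of 5 were at least 2-fold lower at D21 than at D8 (HAS2, VCAN, HAPLN1 and CD44), beside 15.2% of 11075 genes, and 1 was higher (HYAL2), beside 14.4%. In dividing-like cells, 3 of 5 were lower (HAS2, HAPLN1 and CD44), beside 11.5% of 11094 genes, and VCAN was higher, beside 12.4%. At D21, all 5 were highest in a named class other than CM-like cells, as were 74.2% of the 16773 genes with more than 3 UMIs in a named class, so that nothing is read from this count either.

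The values in CM-like cells depend on which cells are taken as CMs. A mitochondrial limit of 5% left 36 CM-like cells at D21 and a HAS2 log2 ratio of -4.29 from D8, while the sum over all cells of a day gave -2.38. At D21, the 10 hepatic endoderm markers summed to 1526 CPM in CM-like cells, against 29.9 CPM at D8, and the 10 endothelial markers to 31.5 CPM, with CDH5, TIE1 and ECSCR at 0. Other lists were lower in the CM-like cells of D21, as HAS2, HAPLN1 and CD44 were. The 10 cardiac fibroblast markers summed to 941, 831 and 169 CPM on D8, D14 and D21, with DCN at 0 at D8. The 8 second heart field progenitor markers summed to 220, 190 and 13.2 CPM, with FGF8, HOXB1 and LGR5 at 0 at D21. The 10 epicardial markers summed to 1492, 607 and 98.1 CPM, of which a single marker made up 1447 CPM at D8. The part of these in the values of the 6 genes was not tested.

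**Figure D3:**
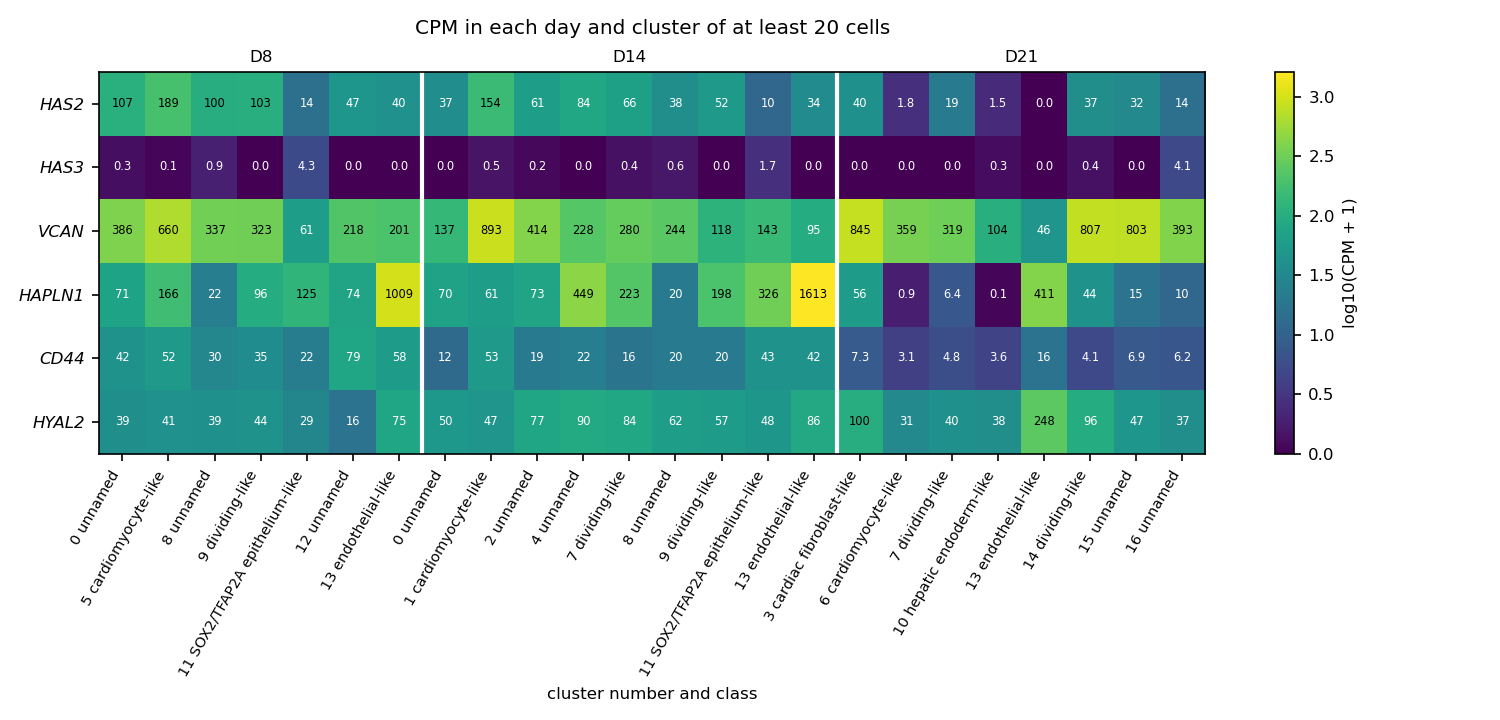
CPM of each gene (rows) in each day and cluster of at least 20 cells (columns, with the cluster number and its class), printed in the cells and coloured by log10(CPM + 1); white lines part the days. HAPLN1 peaks in cluster 13 (endothelial-like) on all 3 days, at 1009, 1613 and 411 CPM, and HAS2 peaks in the CM-like cluster at D8 and D14 and in fibroblast-like cluster 3, at 39.9 CPM, at D21.

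The share of cells with at least 1 UMI was compared with each cell reduced by random draws to 4000 UMIs (thinned), with exact Clopper-Pearson 95% intervals. HAS2 was found in 42.4% of the CM-like cells of D8 (38.1% to 46.9%, 77.7% before thinning), in 33.0% of those of D14 (30.2% to 35.8%, 55.6%) and in 0.610% of those of D21 (0.126% to 1.77%, 2.24%), which is 3 of 492 cells. In the hepatic endoderm-like cells of D21, 0 of 307 cells had HAS2 after thinning, which by 3 counts allows a share of up to 0.977% of cells with a UMI at that depth, and 2.28% had it before thinning. The share in the CM-like cells of D21 was thus at the level of a class of another germ layer both before and after thinning. Whether it is background was not tested. The median depth before thinning was 12975 UMIs in these CM-like cells and 21922 in the hepatic endoderm-like cells. On the earlier days, the unnamed cluster 8, led by PRSS1 and TTR, had HAS2 at 99.7 CPM (D8) and 37.6 CPM (D14). At D8 this cluster met 7 of 10 markers of a foregut-type endoderm epithelium and 6 of the hepatic endoderm markers. Cells with endoderm markers were thus not without HAS2 on those days. VCAN was found in 87.8%, 76.5% and 62.2% of CM-like cells on D8, D14 and D21, and in 18.2% of hepatic endoderm-like cells at D21 (14.1% to 23.0%). HAPLN1 was found in 29.9%, 12.4% and 0.203% of CM-like cells and in 89.4%, 94.3% and 54.1% of endothelial-like cells. CD44 was found in 16.7%, 15.6% and 1.22% of CM-like cells, the last beside 1.95% of hepatic endoderm-like cells. HYAL2 was found in 14.1%, 17.1% and 11.0% of CM-like cells and in 54.1% of the endothelial-like cells of D21 (36.9% to 70.5%).

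**Figure D4:**
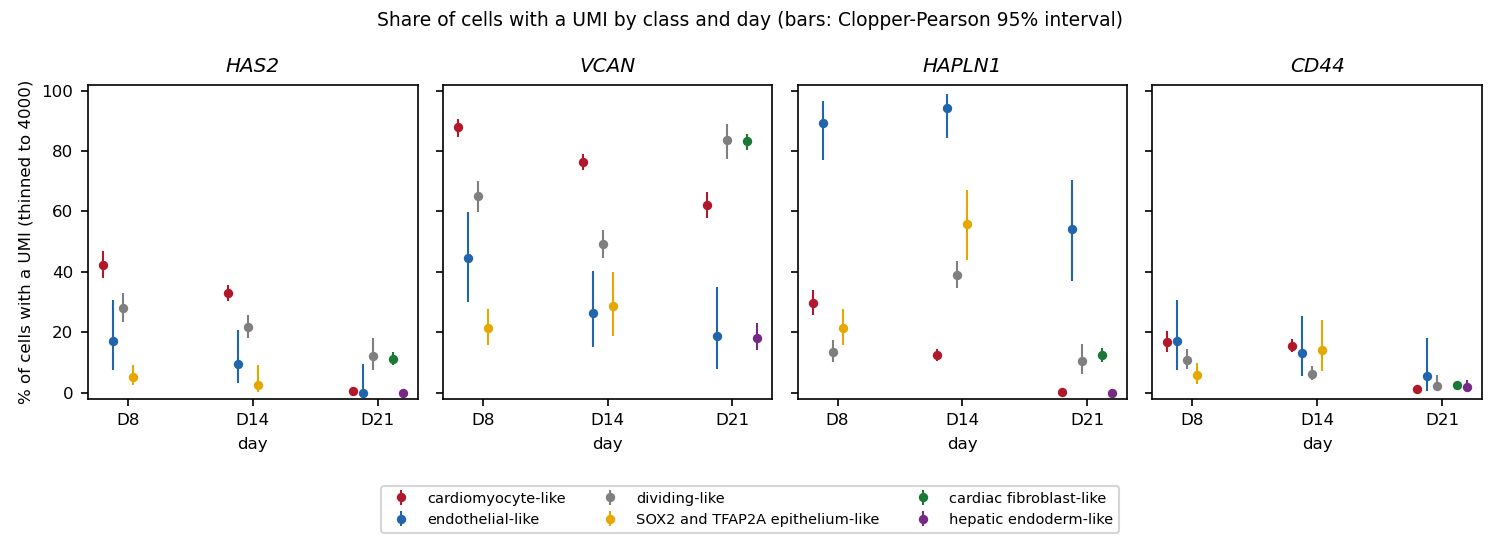
Percentage of cells with at least 1 UMI of HAS2, VCAN, HAPLN1 and CD44 after thinning to 4000 UMIs, by day and class, with Clopper-Pearson 95% intervals as bars. In CM-like cells, HAS2 goes from 42.4% at D8 to 0.610% at D21 and VCAN from 87.8% to 62.2%, and in endothelial-like cells HAPLN1 goes from 89.4% to 54.1%.

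Within CM-like cells the genes were spread differently. In the 502 thinned CM-like cells of D8, the 10% of cells with most HAS2 held 48.2% of its UMIs and a cell had at most 6, whereas for HAPLN1 the top 10% held 65.0% and a cell had up to 22. The median CM-like cell had 2 VCAN UMIs on each of D8 and D14 and 1 on D21, and a cell of D14 had up to 27. Of the D8 cells with HAS2, 41.3% also had HAPLN1, against 21.5% of those without HAS2, while VCAN was found in 88.7% and 87.2%. At D14, HAPLN1 was found in 17.4% of the cells with HAS2 and in 10.0% of those without. These shares of cells come from 1 library each, and the differences were not tested.

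The CM-like cells of D14 held groups with different HAS2 levels. When the cells of D14 were clustered alone, 295 of the CM-like cells fell in a cluster led by NGFR, ACTA2 and SLN and had HAS2 at 312 CPM (295 to 330) and VCAN at 1068 CPM. Another 425 fell in a cluster led by NPPA, CSRP3 and CRYAB and had HAS2 at 105 CPM (96.6 to 113) and VCAN at 754 CPM. The 10 CM markers summed to much the same in both, at 40149 and 42826 CPM, and so did the median mitochondrial share, at 5.53% and 5.58%. HAPLN1 was 86.8 CPM in the first and 43.9 CPM in the second. A further 386 cells fell in a cluster led by CNTN5, RGS4 and MGLL, which was not named as CMs when D14 was clustered alone. Their CM marker sum was 13485 CPM, and they had HAS2 at 89.5 CPM and VCAN at 978 CPM. At D21, the 348 and 115 CM-like cells in the main clusters of that day alone had HAS2 at 1.86 and 1.29 CPM, with overlapping intervals, but VCAN at 410 and 166 CPM, with intervals that do not overlap. These clusters were formed on the same cells, without the 6 genes among the variable genes, and the differences are descriptions.

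The other genes of the pathway were taken from 7 lists with 62 genes, of which 31 reached 5 CPM in CM-like cells at D8 or D21. From D8 to D21, 9 were at least 2-fold lower, 6 at least 2-fold higher and 16 in between, beside 17.6% lower and 12.2% higher among all genes, with a median log2 ratio of -0.55. TMM factors, which shift all these log2 ratios by 0.22, left 5 of them lower and made 8 higher. The counts of each list below stand beside the same shares of all genes, 17.6% lower and 12.2% higher.

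Among the enzymes that make the sugar precursors of hyaluronan, 2 of 6 measured were at least 2-fold lower and 0 higher. UGDH, which makes the UDP-glucuronic acid that all hyaluronan synthases use, had levels of 35.0, 22.9 and 15.4 CPM in CM-like cells on the 3 days. UAP1, which makes the other precursor, went from 25.0 to 8.78 CPM. UGP2, which supplies UDP-glucose to UGDH and to glycogen, was the highest of the list, with 192, 245 and 326 CPM.

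Of the other hyalectans and link proteins, 1 of 6 reached 5 CPM, and it was lower. HAPLN3, another link protein, was at 8.32 CPM in the CM-like cells of D8 and 0.732 CPM in those of D21, and at 68.7, 40.5 and 7.03 CPM in endothelial-like cells on D8, D14 and D21.

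Among other hyaluronan binding proteins and receptors, 2 of 11 were measured, HMMR as lower and ITIH1 as higher. HMMR, a hyaluronan binding protein of the mitotic spindle, was highest in dividing-like cells, at 103 CPM at D14, and went from 6.85 to 3.07 CPM in CM-like cells. ITIH1, a liver plasma protein whose heavy chain is transferred to hyaluronan, had 0 UMIs in the CM-like cells of D8 and 13.9 CPM in those of D21, which is at least 37.9-fold higher. It stood at 913 CPM in the hepatic endoderm-like cells of D21, so that the CM-like level was 1.52% of theirs, where the 10 hepatic endoderm markers, with all 10 present, lay at 0.692% to 1.48%.

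Of the other enzymes of hyaluronan breakdown, 4 were measured and 0 were at least 2-fold higher. TMEM2, a cell surface hyaluronidase, was lower, going from 14.8 CPM at D8 to 6.15 CPM at D21.

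Of the ADAMTS proteases that cleave versican, 1 of 2 measured was higher. ADAMTS9 was at 25.2, 61.0 and 62.8 CPM in CM-like cells on the 3 days, which is 2.49-fold higher at D21 than at D8. It reached 242 CPM in the endothelial-like cells of D21.

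Of the enzymes that build and sulfate chondroitin chains, 11 were measured, with 2 lower, 1 higher and 8 in between. CHST11, a chondroitin 4-O-sulfotransferase, was at 45.0, 30.8 and 3.81 CPM, or 11.8-fold lower at D21 than at D8. Its D8 level in CM-like cells was its highest in any named class. XYLT1, which starts the chains, went from 8.32 to 3.66 CPM. B3GALT6, which adds a sugar of the linker, went from 6.12 to 19.3 CPM with 35.8 CPM at D14. CHPF, a chondroitin polymerising factor, was the highest of the list, at 49.8, 101 and 45.5 CPM.

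Of the ErbB ligands and receptors, which signal beside hyaluronan and versican in the embryonic heart, 3 of 5 measured were at least 2-fold higher and 1 was lower. ERBB2 was at 17.9, 50.1 and 113 CPM in CM-like cells on D8, D14 and D21, and ERBB4 at 6.36, 15.5 and 33.4 CPM. Both had their highest level of any named class in the CM-like cells of D21. NRG1, the neuregulin ligand of ERBB4, went the other way, from 75 UMIs (9.18 CPM) to 3 (0.439 CPM), a log2 ratio of -4.39 (-6.69 to -2.78). HBEGF went from 5.02 to 15.5 CPM.

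**Figure D5:**
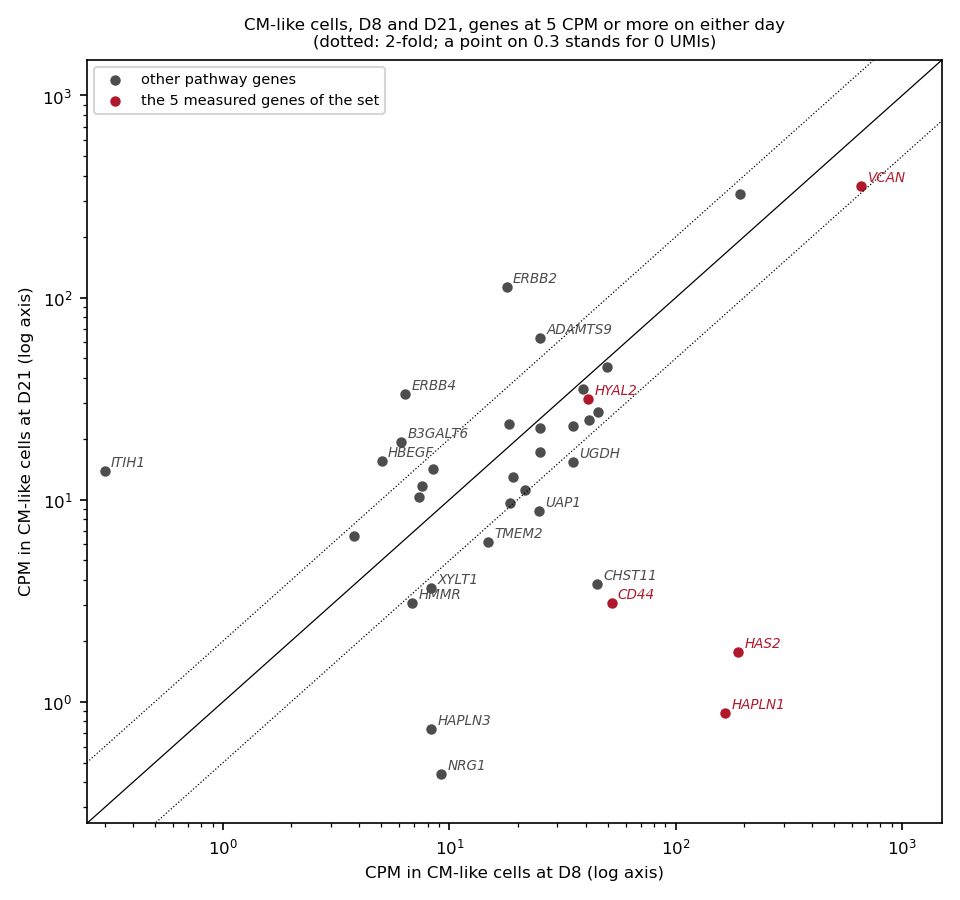
CPM in CM-like cells at D8 (horizontal log axis) and at D21 (vertical log axis) for the 5 measured genes of the set (red) and other measured pathway genes (grey), with the line of equal level and dotted lines at 2-fold; a point on 0.3 stands for 0 UMIs. HAS2, HAPLN1 and CD44 lie far below the line, with CHST11, HAPLN3 and NRG1 from the other lists, while ERBB2 and ERBB4 lie above it.

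Over the 23 groups of a day and a cluster with at least 30 cells, Pearson's r of log2(CPM + 1) was computed between HAS2, VCAN or HAPLN1 and 9661 other genes that reached 20 CPM in some group. These groups share libraries and clusters, and r is a description. Most like HAS2 were a gene listed only by a clone name (r = 0.90), UBXN7 (0.83) and NLGN2 (0.83). Most like VCAN were GATA6, a cardiac and endodermal transcription factor (r = 0.85), PDZRN3 (0.83) and COL6A1, a chain of collagen VI (0.82). GATA6 was at 61.9, 45.5 and 42.6 CPM in CM-like cells and at 1.76 CPM in the endothelial-like cells of D21. Most like HAPLN1 were CPNE2 (r = 0.88), FHL3 (0.88) and CMTM7 (0.87), and the endothelial-like levels of CPNE2 were 80.9, 98.1 and 107 CPM. Among themselves, HAPLN1 and CD44 had r = 0.70, HAS2 and VCAN 0.58, and HAPLN1 and VCAN -0.28. Many other genes had a higher r, since CD44 had rank 291 by r with HAPLN1 and VCAN rank 684 by r with HAS2.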

How the data were processed

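The authors deposited a merged table of UMI counts per gene and barcode, not normalised, from 1 10x 3′ library per day (D8, D14 and D21). The submitters' processing notes name hg19, Cell Ranger and Seurat 3.2.1. The table held 3563, 4615 and 9149 barcodes, and those with over 2000 and below 7500 detected genes and a mitochondrial share below 10% were kept, with 46767738, 50247286 and 30898727 UMIs. Cells were clustered with Seurat 5.3.0 (R 4.3.3) on 1981 variable genes, from which the 6 genes described were left out, with 20 principal components and a resolution of 0.8. A marker was met where it was at least 2-fold above the other cells of the day, with 10 CPM added to both. A cluster was named where at least 3 markers of a list were met, with a lead of 2 over the next list, at least 1 marker of that list among its 10 leading genes and no other list with more there. The thresholds of this naming were set after the data were seen, so that names may differ from those of the study.

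Scrublet, run in scanpy 1.11.5, called 1, 1 and 7 cells as doublets (0.0376%, 0.0279% and 0.360%). That is too few for the caller to have worked, and no cell was removed.

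UMIs were summed per day and class (Python 3.11.15, scipy 1.17.1) and divided by their total. Intervals are exact Poisson for levels, from the exact split of counts for ratios and Clopper-Pearson for shares, all at 95%, and cover counting error only. For a count of 0, 3 counts were taken as the limit. A gene was measured where it had at least 5 CPM on 1 of the days compared. With 1 library per day there was no test and no p-value. On simulated counts of 10767 genes, for CM-like cells at the D8 and D21 totals, 95.5% of the ratio intervals held the true ratio. Those counts were Poisson, as the intervals assume, so that this checks the calculation only and not the spread between cells. In the thinned CM-like cells of D14, the variance over the mean was 5.04 for VCAN, 3.75 for HAPLN1 and 2.10 for HAS2. It was 1.27 for CD44 and 0.971 for HYAL2, where Poisson counts would give 1.

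The 6 genes and the lists were chosen with earlier results of these data known. Named were the 6 genes, pathway genes at 5 CPM or more and at least 2-fold apart between D8 and D21 in CM-like cells or highest in their list, and the 3 genes most like HAS2, VCAN and HAPLN1. Alternatives varied the scaling (edgeR 4.0.16), filters, clustering, cell choice and thinning. The result of 1 pathway gene is not reported here.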

Additional observations from a re-analysis of the deposited data

Results flagged for a closer look

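In 10 comparisons a gene differed between days in opposite directions in CM-like cells and in another class. Each value here is the log2 ratio of the other class minus that of CM-like cells, and with 1 library per day none of these differences was tested.

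From D8 to D14, HAPLN1 was lower in CM-like cells and higher elsewhere, with a difference of 2.10 for endothelial-like, 2.80 for SOX2 and TFAP2A epithelium-like and 2.63 for dividing-like cells. Over the same days, VCAN was higher in CM-like cells and lower in endothelial-like cells, with a difference of -1.52, and in dividing-like cells, with a difference of -0.69.

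VCAN was lower in CM-like and higher in dividing-like cells at D21, with a difference of 2.71 from D14 and 2.02 from D8. The dividing-like cells of D21 lay mainly in a cluster that also met 6 of the 10 fibroblast markers, whose part in this was not tested.

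HYAL2 was lower in CM-like and higher in endothelial-like cells at D21, with a difference of 2.10 from D14 and 2.12 from D8. In dividing-like cells, the difference for HYAL2 from D8 to D21 was 1.36. Whether HYAL2 in CM-like cells was separated between D8 and D21 depended on the scaling.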

How the results depend on the processing

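The log2 ratio of HAS2 between D8 and D21 in CM-like cells (-6.75) kept its direction under all 17 alternatives and lay within its interval under 12. It was -4.29 with a mitochondrial limit of 5% (36 CM-like cells at D21), -4.94 at a resolution of 0.4 (552 cells), -3.07 when cells were chosen by CM markers alone (1750 of the 1946 cells of D21 passed), -2.38 over all cells and -8.63, a bound, with background subtracted. The number of the 6 genes at least 2-fold lower was 3, and 5 with background subtracted. The added genes were VCAN and HYAL2. The background is the lowest level in another cluster of that day. At D21 it lay above the CM-like level of CD44 and HYAL2 and set both to 0, so that the added call of HYAL2 follows from that construction. For VCAN it was 60.9 CPM at D8 and 104 CPM at D21, beside CM-like levels of 660 and 356 CPM. The number higher was 0 under all 18 alternatives. Of the pathway genes, 9 were lower, against 5 with TMM factors, 3 with the 5% limit, 4 with cells chosen by CM markers, 4 over all cells and 16 with no filter on low levels. The number higher was 6, against 16 with cells chosen by CM markers, 15 over all cells and 10 with no filter. Of the 18 shares of CM-like cells, 15 lay above their interval without thinning and 17 below it when 2 UMIs were asked for. Both directions follow from the construction, and only the sizes of the shares are informative. As alternatives chosen after seeing the data, counting cluster 16 as CM-like gave a HAS2 ratio of -6.18, and leaving mitochondrial UMIs out of the totals gave -6.68. No paired analysis was possible because each day had 1 library. HAS3 was too rare for any comparison at this depth.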

Other observations

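A few CM-like cells held much of the HAPLN1 of their class. After thinning, 22 of the 502 CM-like cells of D8 had at least 5 HAPLN1 UMIs and held 41.0% of them. The 10 CM markers summed to 5773 CPM in these cells and to 11987 CPM in the 352 cells with no HAPLN1, and the 10 endothelial markers to 148 and 85.2 CPM, with 3 and 6 markers present. At D14, 6 cells had at least 5 HAPLN1 UMIs and held 20.8%. Their endothelial markers summed to 375 CPM, with 2 present, against 170 CPM in the 993 cells with none. The fibroblast markers were also higher, at 1208 against 778 CPM at D14 and at 1148 against 859 CPM at D8. The median doublet score was 0.0789 against 0.0411 at D14 and 0.0479 against 0.0466 at D8. With so few thinned cells, these sums rest on few UMIs, and the differences were not tested.

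When cells were clustered with no mitochondrial limit, HAS2 in the CM-like cells of D14 was 134 CPM under 5% of mitochondrial UMIs, 173 CPM from 5% to 10% and 253 CPM from 10% to 20%. At D21, it was 1.75 CPM in 415 cells from 5% to 10% and 2.18 CPM in 1196 cells from 10% to 20%, with intervals that overlap. At D8, HAPLN1 was 201 CPM in cells under 5% and 119 CPM in cells from 5% to 10%, and CD44 was 61.3 and 20.1 CPM.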
